A study of Mus musculus with 2 samples.

Results

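Genes of the adrenal steroid pathway, 10 in all, were examined down to single transcripts: the cholesterol carrier Star, the cytochrome P450 enzymes Cyp11a1, Cyp11b1, Cyp11b2, Cyp21a1 and Cyp17a1, and the electron donors Fdx1, Fdxr, Por and Cyb5a. They were picked by gene symbol with a rule that uses no measured value, although earlier results of these data were known when it was set. They are 10 of 55536 annotated genes, 22015 of which are nuclear protein-coding genes, and they hold 39 of 141767 annotated transcripts. Total RNA from adrenal glands was sequenced in 2 libraries of a single group: male B6CASTF1/J mice, 14 days old, with 300 ng of RNA at the start of each library. B6CASTF1/J mice are first-generation offspring of C57BL/6J and CAST/EiJ parents. The labels call the libraries biological replicates 1 and 2, name no treatment or altered allele, and number the pools of males alike in one field and differently in another. The SD may therefore not span separate animals, and a single group allows neither a comparison of conditions nor a p-value. Levels are given in TPM, an abundance per transcript length that adds up to the same total in each library, as quantified by RSEM unless kallisto, a second quantification of the same reads, is named.

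Steroid hormones are made from cholesterol, which Star brings to the inner mitochondrial membrane. Enzymes of the P450 family then cut and hydroxylate it, some inside the mitochondrion and some in the endoplasmic reticulum. Each reaction consumes electrons: mitochondrial P450 enzymes receive them from Fdxr through the iron-sulphur protein Fdx1, and microsomal P450 enzymes from Por, in some reactions with help from the cytochrome Cyb5a. Corticosterone of the zona fasciculata and aldosterone of the zona glomerulosa are the main steroids of the mouse adrenal cortex.

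The replicate 1 library held 32963248 expected counts (reads shared out among transcripts by RSEM) and the replicate 2 library 36260745, of which 17154352 and 19024838 fell on nuclear protein-coding genes. All 5 cortex markers and all 5 medulla markers checked were at 1 TPM or more in both libraries. The cortex markers summed to 1692 TPM in replicate 1 and 1274 in replicate 2, 2 of 5 being higher in replicate 2, and Akr1b7 went from 824.7 to 486.0 TPM. None of 5 kidney markers was at 1 TPM or more in both libraries, and Umod and Slc12a1 were listed at 0. The libraries stood apart in liver genes: 6 of 6 hepatocyte markers were higher in replicate 2, their levels summing to 260.8 TPM in replicate 1 but 4657 in replicate 2. Lymphoid markers went the other way, with 4 of 4 lower in replicate 2 and sums of 34.4 and 4.78 TPM. Markers of brown and white fat were present at like levels, summing to 2803 and 2845 TPM. In such bulk tissue, fewer cells of a type and less RNA per cell cannot be told apart.

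The 10 genes together took 1.84% of the nuclear protein-coding TPM in replicate 1 and 1.97% in replicate 2. Their order from highest to lowest was Star, Cyp21a1, Cyp11a1, Cyp11b1, Fdx1, Fdxr, Cyb5a, Por, Cyp11b2 and Cyp17a1, and it was the same in both libraries. For each of the 9 neighbouring pairs in this order the 2 libraries of the higher gene lay above the 2 of the lower gene. The closest neighbours were Cyp11b1 and Fdx1, whose mean levels differed 1.12-fold. By kallisto the levels of Por and Cyp11b2 overlapped, while the other 8 pairs stayed apart. With all reads of each gene counted on the length of the transcript with the most counts, 7 of the 9 pairs stayed apart: Star (955 and 1168 TPM) then overlapped Cyp21a1 (940.2 and 1006), and Cyp11b1 overlapped Fdx1. The top 5 members (Star, Cyp21a1, Cyp11a1, Cyp11b1 and Fdx1) ranked between 4 and 27 among nuclear protein-coding genes, whereas Cyp17a1 ranked 9919. These ranks use mean deposited TPM, which for Star was 1.82-fold its level on a single length.

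**Figure D1:**
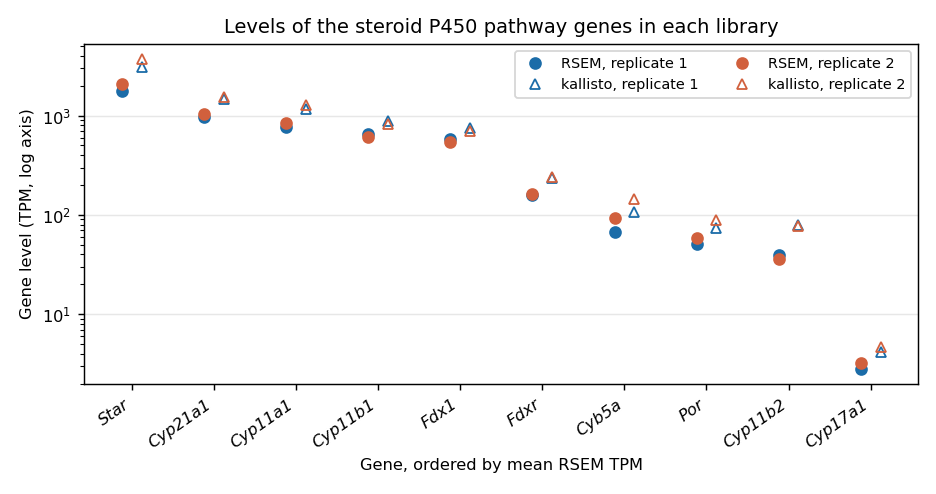
Level of each gene in each library (y axis, TPM on a log scale), genes ordered along the x axis by mean RSEM TPM; filled circles are RSEM and open triangles kallisto, blue for replicate 1 and red for replicate 2. Star stands highest at 1756 and 2099 TPM by RSEM and Cyp17a1 lowest at 2.82 and 3.25 TPM, and kallisto values lie above RSEM values for every gene.

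Star carried the highest level and was the only one of the 8 genes with several transcript models in which no model held at least 80% of the mean RSEM TPM. It lies on mm10 chromosome 8 from 25806555 to 25815982 on the plus strand and has 2 annotated transcripts, both typed as protein-coding. Star-201 is 4046 bases long, has 7 exons, encodes 852 coding bases and has a CCDS entry, which marks a coding region on which annotation groups agree. Star-202 is 633 bases long, has no CCDS entry and is an incomplete model whose 3′ end was not found. Its first exon of 39 bases lies upstream, with a start 1919 bases before that of Star-201, and it stops 4761 bases before the end of Star-201. All 471 coding bases of Star-202 also belong to Star-201, and only 67 of its bases are absent from Star-201, all of them outside the coding region. The remaining 381 coding bases are found only in Star-201. They include the whole of exon 6, at chr8:25811790-25811883, plus strand, which is shown because a read on it can belong to Star-201 only:
Star-201 exon 6: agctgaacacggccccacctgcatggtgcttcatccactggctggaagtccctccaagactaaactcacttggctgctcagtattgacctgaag

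Read shares and TPM shares of the 2 Star transcripts differed widely. Star-202 received 16258 expected counts in replicate 1 and 20469 in replicate 2, against 107576 and 143794 for Star-201, so it took 13.1% and 12.5% of the Star counts. In TPM, where counts are divided by length, Star-202 reached 926 and 1076 and Star-201 829 and 1023. Star-202 thus held 52.8% and 51.3% of the Star TPM by RSEM, and 60.3% and 59.8% by kallisto. The 2 libraries gave nearly the same split, and the 2 quantifications placed Star-202 first in each. When all Star reads were counted on the length of Star-201, the level was 955 and 1168 TPM, 1061 ± 151 (SD, n = 2), and the deposited gene level of 1927 ± 242 was 1.82-fold above it. The other members changed by much less in that calculation, with deposited levels between 0.891-fold (Fdx1) and 1.12-fold (Por) of the value on a single length. Star was thus the 1 member of 10 past 1.5-fold, and 18.2% of the 12475 nuclear protein-coding genes averaging at least 1 TPM for which it could be computed were.

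**Figure D2:**
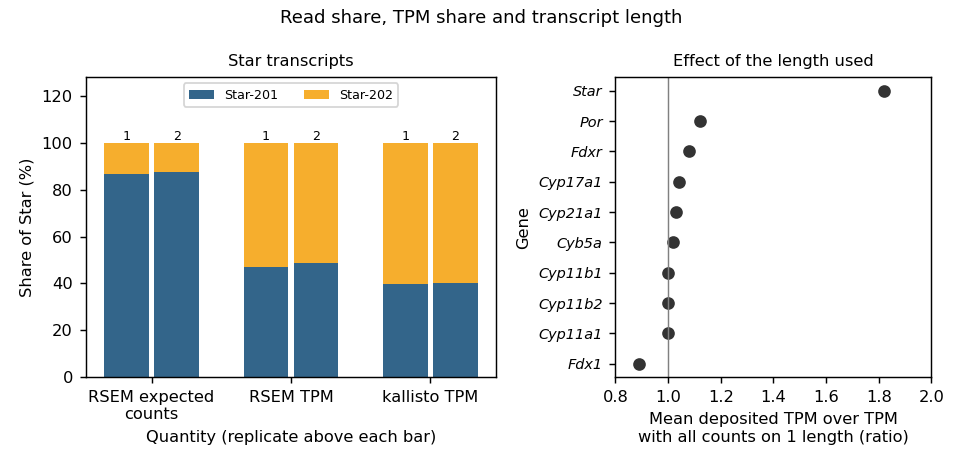
Left, share of Star (y axis, percent) on Star-201 (blue) and Star-202 (yellow) in expected counts, RSEM TPM and kallisto TPM, with the replicate number above each bar; right, mean deposited TPM of each gene divided by its TPM with all counts on the length of the transcript with the most counts (x axis, ratio). Star-202 holds 13.1% and 12.5% of the counts but 52.8% and 51.3% of the RSEM TPM, and Star is the gene farthest to the right at 1.82.

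Cyp11a1 opens the pathway by cutting the cholesterol side chain to give pregnenolone. It lies on chromosome 9 from 58006411 to 58027023, plus strand, and measured 762.4 TPM in replicate 1 against 834.7 in replicate 2. Its full-length coding transcript Cyp11a1-201 held 97.0% and 97.1% of that. The only noncoding model, the retained intron Cyp11a1-204, held 1.66% and 1.54%. By RSEM the leading share of Cyp11a1 varied least between the libraries among the 8 genes with several models. Star exceeded Cyp11a1 2.41-fold by deposited TPM, a log2 ratio of 1.27 ± 0.0895 (SD, n = 2). On a single length per gene the ratio was 1.32-fold, so its size depended on the Star-202 model.

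Cyp11b1 and Cyp11b2 are neighbouring mitochondrial P450 genes that carry out the last steps of corticosterone and of aldosterone synthesis. Both are on the minus strand of chromosome 15, 9366 bases apart: Cyp11b1 spans 74834125 to 74841643, and Cyp11b2 spans 74851010 to 74856318. Each has a single annotated transcript with 9 coding exons. Their coding regions matched at 86.9% of alignment positions, with gaps counted as not matching, very unevenly between exons. Exon 1 was identical at 99.2% of bases with an unbroken run of 220. Exon 5, with 3 gap positions, was identical at 65.2%, with no run longer than 7. The exons with the highest and, among exons of equal length, the lowest identity are shown, with capitals for the bases that differ between the genes. Exon 1 spans chr15:74841368-74841612 in Cyp11b1 and chr15:74855987-74856231 in Cyp11b2, and exon 3 spans chr15:74839227-74839426 and chr15:74853796-74853995, all on the minus strand:
Cyp11b1 exon 1: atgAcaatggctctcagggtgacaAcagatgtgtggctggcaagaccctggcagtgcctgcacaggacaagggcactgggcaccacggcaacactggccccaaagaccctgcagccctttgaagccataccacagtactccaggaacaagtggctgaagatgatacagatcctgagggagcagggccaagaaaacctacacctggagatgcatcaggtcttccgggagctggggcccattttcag
Cyp11b2 exon 1: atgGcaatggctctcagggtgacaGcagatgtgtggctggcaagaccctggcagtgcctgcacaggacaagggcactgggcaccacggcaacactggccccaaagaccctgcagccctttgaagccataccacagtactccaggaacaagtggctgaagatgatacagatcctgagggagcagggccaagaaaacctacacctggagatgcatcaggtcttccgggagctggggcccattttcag
Cyp11b1 exon 3: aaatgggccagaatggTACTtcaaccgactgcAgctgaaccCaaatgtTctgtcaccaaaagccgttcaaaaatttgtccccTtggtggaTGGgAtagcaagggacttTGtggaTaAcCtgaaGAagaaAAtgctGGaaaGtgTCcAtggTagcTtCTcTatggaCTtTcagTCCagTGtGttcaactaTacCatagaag
Cyp11b2 exon 3: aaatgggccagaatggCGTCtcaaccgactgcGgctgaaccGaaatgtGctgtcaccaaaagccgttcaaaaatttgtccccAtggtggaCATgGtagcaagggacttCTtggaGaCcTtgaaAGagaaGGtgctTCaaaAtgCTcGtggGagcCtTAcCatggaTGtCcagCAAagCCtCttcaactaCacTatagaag

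Exon 1 thus tells the genes apart at 2 of 245 bases and exon 3 at 43 of 200. Over whole transcripts, 404 of the 1595 stretches of 31 bases in Cyp11b2 also occur in Cyp11b1. A read lying wholly in shared sequence cannot be assigned by its letters, but a read longer than 31 bases may reach a base that differs. These are therefore counts of stretches and not of reads. In all, 25.3% of Cyp11b2 stretches occurred in another gene, which was always Cyp11b1. Of the 3135 stretches in Cyp11b1, 454 (14.5%) occurred in another gene, 404 of them in Cyp11b2 and the rest only in other genes. Cyp11b1 stood at 649.5 and 614.8 TPM and Cyp11b2 at 39.1 and 36.1 TPM, so the groups of values lay far apart. The log2 ratio of Cyp11b1 over Cyp11b2 was 4.07 ± 0.0263 (SD, n = 2), or 16.8-fold, but 10.9-fold by kallisto. The difference arose mostly in Cyp11b2, whose kallisto level was 2.03 and 2.12 times its RSEM level, against 1.35 and 1.33 times for Cyp11b1. The median over nuclear protein-coding genes was 1.53 and 1.51 times, and Cyp11b2 had the highest such ratio of the 10 members.

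Cyp21a1, the 21-hydroxylase of the endoplasmic reticulum, had the highest level of the P450 members, with 972.6 TPM in replicate 1 against 1032 in replicate 2. It lies on chromosome 17 from 34801348 to 34804561, minus strand, and Cyp21a1-201 held 95.4% and 96.5% of its TPM. The pseudogene Cyp21a2-ps lies 79095 bases away on the same strand, from 34719813 to 34722252, and stood at 53.2 and 49.5 TPM. Cyp21a1 exceeded it 18.3-fold and 20.8-fold by RSEM and 16.6-fold and 18.9-fold by kallisto. The 9 exons of the pseudogene pair with 9 of the 10 coding exons of Cyp21a1 and match them at 96.7% of alignment positions. Gaps count as not matching, and 12 gap positions fall in the last pair, which is 266 and 278 bases long. Exon 5 of Cyp21a1, 102 bases long, is identical in the pseudogene, and 729 stretches of 31 bases are shared, which is 35.9% of those in Cyp21a1-201 and 53.9% of those in the pseudogene. The split of reads between the 2 genes is therefore uncertain. Shown are exon 2 of Cyp21a1, which has no counterpart in the pseudogene model, at chr17:34804044-34804133, and the pair of equal-length exons with the lowest identity (94.3%), at chr17:34802985-34803071 in Cyp21a1 and chr17:34721051-34721137 in the pseudogene, all minus strand, with capitals for bases that differ:
Cyp21a1 exon 2: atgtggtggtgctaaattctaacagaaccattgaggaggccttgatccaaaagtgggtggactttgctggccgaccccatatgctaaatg
Cyp21a1 exon 6: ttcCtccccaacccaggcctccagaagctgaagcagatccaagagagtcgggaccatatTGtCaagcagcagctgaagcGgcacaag
Cyp21a2-ps exon 5: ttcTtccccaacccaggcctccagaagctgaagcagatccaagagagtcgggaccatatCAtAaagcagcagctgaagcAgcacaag

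**Figure D3:**
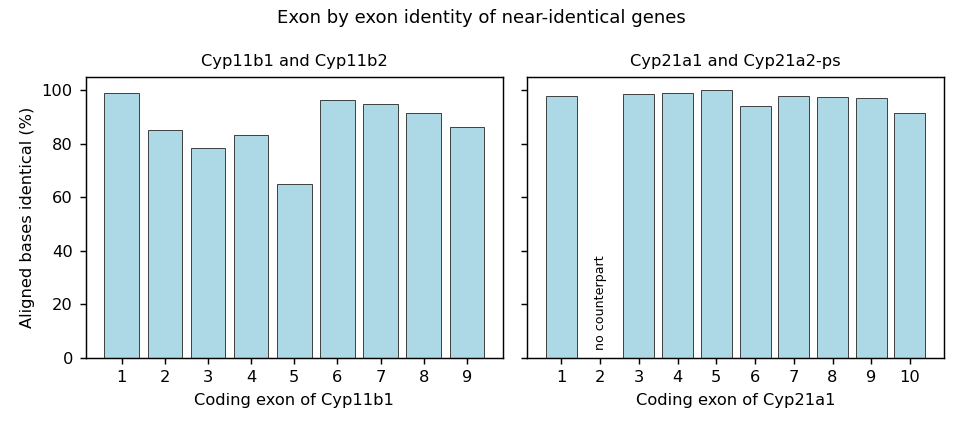
Percent of alignment positions identical, gaps counted as not identical (y axis), in each coding exon (x axis) of Cyp11b1 against Cyp11b2 (left) and of Cyp21a1 against its pseudogene Cyp21a2-ps (right). The left pair ranges from 65.2% in exon 5 to 99.2% in exon 1, and the right pair reaches 100% in exon 5 and has no counterpart for exon 2.

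Cyp17a1, which makes 17-hydroxylated steroids and androgens in the microsome, measured 2.82 TPM in replicate 1 against 3.25 in replicate 2. It lies on chromosome 19 from 46667165 to 46673172, minus strand. Cyp21a1 exceeded it 331-fold, a log2 ratio of 8.37 ± 0.0840 (SD, n = 2). Only 159 and 184 expected counts supported Cyp17a1, and its isoform shares varied between libraries and quantifications. RSEM gave Cyp17a1-201 100% in replicate 1 and 83.8% in replicate 2, where the retained intron Cyp17a1-202 took 12.2%. Kallisto placed 16.2% and 21.6% on the second coding model Cyp17a1-204, to which RSEM gave 0% and 4.04%. Of the Leydig cell markers of the testis, Lhcgr stood at 0.01 and 0 TPM, Hsd17b3 at 0.18 and 0.05 TPM, and Insl3 at 2.62 and 2.15 TPM, near the level of Cyp17a1 itself. The part of such cells in the Cyp17a1 level was not tested. Cyp17a1 and Cyp19a1, the aromatase, were the lowest of the 4 steroid P450 genes listed as microsomal, and Cyp19a1 had 0 counts in both libraries.

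Fdx1, the ferredoxin that hands electrons to mitochondrial P450 enzymes, was the most abundant donor with 579.2 TPM in replicate 1 against 545.6 in replicate 2. It lies on chromosome 9 from 51943306 to 51963556, minus strand. Its main coding transcript Fdx1-201 held 94.3% and 94.2% of the TPM, and Fdx1-202, a second coding model, 5.0% and 5.22% by RSEM and 6.14% and 7.02% by kallisto. The 2 models share 452 coding bases and part at the last exon, which adds 112 coding bases in Fdx1-201 and 46 in Fdx1-202. Because Fdx1-202 is 2759 bases long and Fdx1-201 875, the share of Fdx1-201 in expected counts was lower, at 84.0%. The coding parts of the last exons are shown, at chr9:51943538-51943649 for Fdx1-201 and chr9:51947152-51947197 for Fdx1-202, minus strand, as the coding stretches in which these 2 models differ:
Fdx1-201 last coding exon: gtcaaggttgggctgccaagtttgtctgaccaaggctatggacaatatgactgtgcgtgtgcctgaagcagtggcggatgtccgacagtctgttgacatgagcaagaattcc
Fdx1-202 last coding exon: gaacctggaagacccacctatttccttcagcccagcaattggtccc

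Fdxr, the reductase that charges Fdx1, stood at 157.7 and 163.2 TPM and lies on chromosome 11 from 115268024 to 115277050, minus strand. Fdx1 exceeded Fdxr by a log2 ratio of 1.81 ± 0.0960 (SD, n = 2). Of all members, Fdxr had the largest mean share of TPM on models that are not protein-coding, 13.2% in replicate 1 and 9.69% in replicate 2. Most of this lay on 2 processed transcripts, Fdxr-202 with 5.68% and 4.41% and Fdxr-203 with 6.17% and 4.28%. The coding model Fdxr-201 held 86.8% and 90.3%. The summed level of the 3 mitochondrial P450 genes Cyp11a1, Cyp11b1 and Cyp11b2 was 1451 and 1486 TPM, 2.61-fold that of Fdx1 by the mean log2 ratio of 1.38 ± 0.0850.

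Por, the flavoprotein that supplies microsomal P450 enzymes, measured 50.6 TPM in replicate 1 against 58.4 in replicate 2. It lies on chromosome 5 from 135670033 to 135735326, plus strand. Cyp21a1 and Cyp17a1 together exceeded Por 18.5-fold (log2 ratio 4.21 ± 0.0853, SD, n = 2), where the mitochondrial P450 genes exceeded Fdx1 2.61-fold. These 2 ratios are not of like kind, because Por is a reductase and Fdx1 is charged by the reductase Fdxr. Fdxr stood lower than Fdx1, at 157.7 and 163.2 TPM, beside 1451 and 1486 TPM for the mitochondrial P450 sum. Por had the most models of the members, 9, of which Por-201 held 82.0% and 86.0%. The retained intron Por-206 took 5.94% and 2.95% by RSEM and 0.00269% and 0.833% by kallisto. Por-208, a coding model with its own upstream first exon, showed the opposite: it was at 0 by RSEM in both libraries and held 5.68% and 10.3% of the Por TPM by kallisto. Its 821 coding bases all lie within Por-201, and only 84 of its bases are its own. Whether Por-208 is present was thus answered differently by the 2 quantifications.

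Cyb5a, a small haem protein that passes electrons in the endoplasmic reticulum and aids some reactions of Cyp17a1, measured 66.9 TPM in replicate 1 against 93.4 in replicate 2. It lies on chromosome 18 from 84838704 to 84879871, plus strand. The ratio of Cyb5a to Por was 1.46-fold (log2 0.541 ± 0.193, SD, n = 2), by RSEM the ratio with the widest spread of the 8 computed. By kallisto its SD was 0.126, below the 0.148 of microsomal P450 over Por. Of 8 models, Cyb5a-204 held 87.5% and 86.7% by RSEM. Cyb5a-205, a coding model with another first exon, held 7.56% and 10.3% by RSEM but 22.2% and 6.37% by kallisto, so that the quantifications disagreed on which library had more of it. The models share 273 coding bases, with 129 found only in Cyb5a-204 and 57 only in Cyb5a-205.

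Across the 8 genes with several models, the leading transcript was the same in both libraries and in both quantifications for 8 of 8. Of 11436 nuclear protein-coding genes with several models and a mean of at least 1 TPM, 65.6% met that rule. Those genes were not matched to the members in level or in number of models. The leader was typed as protein-coding in 8 of 8, against 92.5% of those genes. By RSEM it held at least 80% of the TPM in 7 of 8, all but Star, against 28.5%. By kallisto it did so in 6 of 8, all but Star and Cyp17a1, against 23.4%. Every leader except Star-202 has a CCDS entry. Of the 39 transcripts, 20 are typed as protein-coding, 9 as retained introns, 7 as processed transcripts and 3 as targets of nonsense-mediated decay, and 25 were at 1 TPM or more in both libraries. The 19 models that are not protein-coding held 1.82% of the members' TPM in replicate 1 and 1.39% in replicate 2, or 1.22% and 0.901% by kallisto. By RSEM that share was lower in replicate 2 in 6 of the 7 genes with such models, all but Cyp17a1. It was lower in 56.1% of 10016 nuclear protein-coding genes with such models and a mean of at least 1 TPM. By kallisto it was lower in 5 of the 7, all but Cyp17a1 and Fdx1, against 55.1%. Named above are models with at least 5% of their gene in any of the 4 measurements, 19 in all, together with Cyp11a1-204, which was named as the only noncoding model of its gene.

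**Figure D4:**
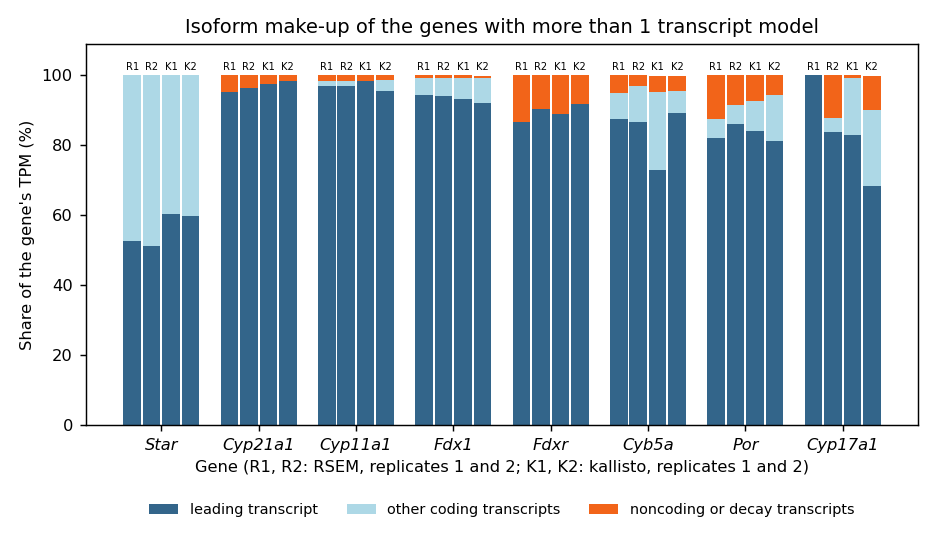
Share of each gene's TPM (y axis, percent) on the leading transcript (dark blue), other protein-coding models (light blue) and models typed as noncoding or decay targets (orange), for RSEM (R1, R2) and kallisto (K1, K2) in replicates 1 and 2. By RSEM the leading transcripts hold at least 82.0% of every gene except Star, where Star-202 holds 52.8% and 51.3%, and orange is widest in Fdxr, Por and replicate 2 of Cyp17a1.

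Relatives of the members were mostly far lower. Of 4 further Star-family genes, none reached a mean of 10 TPM, and they ranged from 0.6 to 8.74 TPM in replicate 1 and from 0.71 to 10.9 TPM in replicate 2. The second ferredoxin, Fdx1l, stood at 10.6 and 10.5 TPM, far below Fdx1. A further 3 mitochondrial P450 genes summed to 7.04 and 7.44 TPM, nearly all of it Cyp27a1, an oxysterol-forming enzyme. Of 4 relatives of the microsomal donors, 2 stood near the members and 2, Cyb5r1 and Mtrr, stayed under 10 TPM. Cyb5b, the outer mitochondrial cytochrome, stood at 69.2 and 82.4 TPM, overlapping the range of Cyb5a, and Cyb5r3, a cytochrome b5 reductase, at 54.8 and 58.5 TPM, overlapping Por. Among other users of Por electrons, Cyp51 of cholesterol synthesis stood at 9.21 and 11.8 TPM, and 2 others, Sqle and Hmox1, had means under 10 TPM. Dhcr7, the last enzyme of cholesterol synthesis, reached 142.5 and 134.5 TPM. Of other steroid enzymes, Hsd3b1, which acts between Cyp11a1 and Cyp21a1, was the highest at 1680 and 1743 TPM. Hsd3b6, a close relative of Hsd3b1 whose reads may be shared with it, stood at 16.5 and 12.9 TPM, Srd5a2 at 18.0 and 24.6, Hsd11b1 at 7.04 and 22.3 and Akr1c18 at 348.2 and 700.4, and the other 4 found stayed under 10 TPM.

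None of the 10 members differed more than 1.5-fold between the libraries, where 11% of the 12535 nuclear protein-coding genes averaging at least 1 TPM did. That share depended on level: it was 5.54% at a mean of at least 5 TPM and 20.9% among genes above 0 in both libraries. Cyb5a differed most, 1.40-fold higher in replicate 2 (log2 0.481). By deposited TPM it was the only member past a log2 difference of 0.322 either way, where 24.9% of the 12535 genes were. Star followed at 1.20-fold (log2 0.257), then Por (log2 0.207) and Cyp17a1 (log2 0.205), all higher in replicate 2. Cyp11b1, Cyp11b2 and Fdx1 were lower in replicate 2, by log2 differences of -0.0792, -0.116 and -0.0862. In all, 7 of 10 were higher in replicate 2, against 37.2% of the genes, and the median log2 difference was 0.108 for the members and -0.0662 for the genes. These directions depended on scaling for the smaller differences. With ERCC spike-in scaling 6 of 10 were higher and Fdxr became lower. The median log2 difference was then 0.03 for the members and -0.144 for the genes. With TMM scaling, which compares libraries by their trimmed mean, 9 of 10 were higher and only Cyp11b2 was lower. The medians were then 0.179 for the members and 0.0215 for the genes. The 37.2% belongs to deposited TPM and is no background for the counts under these scalings. With TMM scaling Star, at 0.374, joined Cyb5a past a log2 difference of 0.322, where 20.3% of the genes were. Replicate 2, in which 7 of 10 members were higher by deposited TPM, was also the library richer in hepatocyte markers. These summed to 4657 rather than 260.8 TPM. The cortex marker sum was lower in replicate 2, with Akr1b7 going from 824.7 to 486.0 TPM, but 2 of the 5 cortex markers were higher. The part of these markers in the differences was not tested. With 1 library on each side, none of these differences can be set against a spread.

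**Figure D5:**
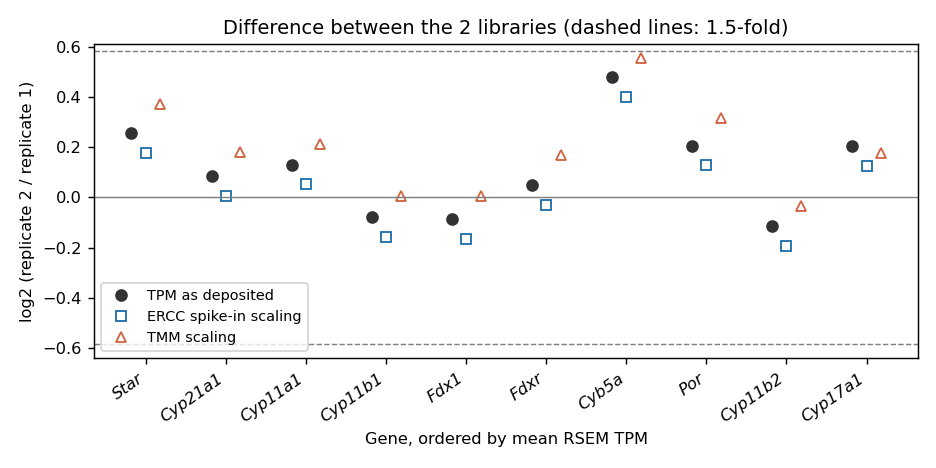
Log2 ratio of replicate 2 over replicate 1 (y axis) for each gene (x axis), as deposited TPM (filled circles), with ERCC spike-in scaling (squares) and with TMM scaling (triangles); dashed lines mark 1.5-fold. All points lie within the dashed lines, Cyb5a is the highest at 0.481 by deposited TPM, and points near 0 change sign with the scaling.

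Genes that overlap the members on the genome were low. Annotated genes on either strand overlap 5 of the 10 members, 6 genes in all, and the highest was Gm17322, a long intergenic RNA beside Cyp11a1 on the same strand, at 0.72 and 0.75 TPM. The pseudogene Tnxa, opposite Cyp21a1, stood at 0.53 and 0.59 TPM.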

How the data were processed

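The authors deposited expected counts, TPM, posterior mean TPM and the percent of a gene's TPM on each transcript, per the file headers, whose column names are those of RSEM, made from transcriptome alignments to mm10 with GENCODE M21, per the deposited file list. The authors also deposited credibility bounds of TPM, a signal that adds up to no fixed total; they were read but are not reported. Estimated counts and TPM of a second quantification carry the column names of kallisto, per the file headers, and were summed here to genes. The aligner and the versions of the upstream tools: not given in the sources used here. Reads of CAST alleles were aligned to mm10, and the effect was not measured.

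The members, though picked by symbol, and the lists were chosen with earlier results of these data known. All 10 members are named, with transcripts at 5% or more of their gene in any library or quantification. Relatives with a mean of at least 10 TPM are named, as are some lower ones, and the others are counted. Of 75 list genes 72 had a single matching gene. The leading transcript has the highest mean TPM. Values are means ± SD over 2 libraries; rounded counts of the libraries differed by a chi-square of 35 per degree of freedom, beyond counting noise. TMM factors came from edgeR 4.0.16 in R 4.3.3, and spike-in scaling from 39 ERCC RNAs with at least 10 counts. Exons were aligned with Biopython 1.88 on GENCODE M21 transcripts. The fold and leading transcript steps were tested on simulated data with large changes and a dominant transcript in each gene. Changes near 1.5-fold and splits as even as that of Star were not simulated, so the test does not cover them. Alternatives were kallisto, posterior mean TPM, a pseudocount of 1, other thresholds and scalings and each library alone; a single transcript length and shares of counts were added after seeing the data. The library kit is directional, per the labels; no source used here gives the strand setting of the counting. Read depth limits precision most for Cyp17a1.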

Additional observations from a re-analysis of the deposited data

How the results depend on the processing

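Directions of the 8 ratios between members held under every alternative computed, while sizes moved by more than the SD between the libraries in several. With kallisto TPM the members' share of nuclear protein-coding TPM was 1.79% in place of 1.90%, and the log2 ratios were 3.44 for Cyp11b1 over Cyp11b2, 1.62 for Fdx1 over Fdxr, 1.56 for mitochondrial P450 over Fdx1, 0.506 for mitochondrial over microsomal P450 and 1.47 for Star over Cyp11a1. With all reads of a gene on 1 transcript length, added after seeing the data, the share was 1.60% and the log2 ratios were 2.08 for Fdx1 over Fdxr, 1.22 for mitochondrial P450 over Fdx1, 4.34 for microsomal P450 over Por, 0.591 for mitochondrial over microsomal P450 and 0.402 for Star over Cyp11a1. With a pseudocount of 1 the log2 ratio was 4.04 for Cyp11b1 over Cyp11b2 and 7.96 for Cyp21a1 over Cyp17a1, and with posterior mean TPM the latter was 8.25. The median leading share over the 8 genes with several models was 89.7% in the main values, 87.9% by posterior mean TPM and 93.6% by expected counts. The noncoding share was 1.61% in the main values, 1.06% by kallisto and 0.795% by expected counts. At a threshold of 0.322 on the log2 scale 1 member differed between the libraries. At a 90% threshold 4 of 8 leading transcripts passed, against 16.6% of nuclear protein-coding genes with several models and a mean of at least 1 TPM. With 2 libraries, a single library always lies within 1 SD of their mean, so leaving out each in turn tests no stability. The part of the choice of quantification in the Cyp11b ratio was not tested beyond these values. No paired analysis was possible because there is 1 group only. Depth limits Cyp17a1, whose isoform shares rest on 159 and 184 counts.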
